A study of Mus musculus with 8 samples.

Results

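Hal, Qpct and Cacna1a are 3 genes of mouse macrophages whose RNA levels lay far apart between 3 wild-type libraries and 3 libraries labelled LysM-DKO. They were chosen for that separation from 24421 gene symbols, of which 13821 had enough counts to be tested. The difference between LysM-DKO and WT in these 3 genes is therefore a description, and no test of it is given. Hal and Cacna1a were the higher ones in LysM-DKO and Qpct was the lower one.

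RNA was sequenced from primary macrophages of mice on a normal diet, in 8 libraries. The groups are WT (3 libraries), LysM-DKO (3 libraries), which the design text calls an epsin double knockout, and ABCG1KO (2 libraries), a knockout of the cholesterol transporter ABCG1. LysM is the usual name of the lysozyme 2 promoter, which acts in myeloid cells, so that the label describes a deletion limited to these cells; the sources used here give neither the alleles nor the tissue of origin. Nothing in the labels says that libraries of a group came from separate animals or cultures, so p-values measure only the spread between these libraries.

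Hal encodes histidine ammonia-lyase, which removes the amino group from histidine to give urocanate, the first step of histidine breakdown, best known from liver and skin. Qpct encodes the secreted glutaminyl-peptide cyclotransferase, which closes an N-terminal glutamine into pyroglutamate and so protects peptides and chemokines such as CCL2 from aminopeptidases. Cacna1a encodes the pore-forming subunit of the P/Q-type calcium channel, best known from nerve terminals, where it admits the calcium that triggers transmitter release.

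The genes lie on separate chromosomes, in coordinates of GRCm38 with GENCODE M21 annotation. Hal spans chr10:93488768-93519304 on the plus strand, and no other annotated gene overlaps it. Qpct spans chr17:79051906-79090378 on the plus strand, also without an overlapping gene. Cacna1a spans chr8:84388440-84640246 on the plus strand, and 3.81% of its exon bases are shared with Gm16183 on the minus strand, which is not among the symbols counted, so that its reads there would be counted as Cacna1a if strand was not used. Of all stretches of 50 bases in their transcripts, 0.574% in Hal, 0% in Qpct and 2.5% in Cacna1a also occur in another gene.

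The promoter of Hal is shown because Hal had the widest gap between the groups. These are the 250 bases before its start site, chr10:93488518-93488767 on the plus strand, from RefSeq in build GRCm38.p6, with motif matches in capitals. The table held 1 of the 3 genes.
Hal: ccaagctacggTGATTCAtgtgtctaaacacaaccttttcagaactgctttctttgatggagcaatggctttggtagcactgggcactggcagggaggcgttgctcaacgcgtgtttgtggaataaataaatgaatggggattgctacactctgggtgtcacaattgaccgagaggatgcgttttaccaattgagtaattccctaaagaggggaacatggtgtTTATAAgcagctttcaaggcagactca

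Both strands were searched for 5 motifs. The TATA element TATAA matched on both strands at overlapping positions, with first bases at -26 and -27 from the start site, and 22.8% of 32851 mouse promoters of the same length hold it. The motif TGANTCA, which resembles the site of AP-1 factors but allows any base at its centre, matched once, at -239, as TGATTCA. It is held by 6.75% of promoters, and binding by AP-1 was not tested. The other motifs had no match in this window: CACGTG (in 6.02% of promoters), GGGCGG (32.7%) and GAGGAA (23.3%). A match is a description of these letters only.

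Levels are given in CPM, the usual unit for counts scaled to library size, here after TMM scaling for library composition, and errors are SD over libraries. In bulk RNA, fewer cells of a type and less RNA per cell cannot be told apart. Hal measured 3.19, 4.31 and 0.932 CPM in WT 1, 2 and 3. In LysM-DKO 1, 2 and 3 it measured 157, 149 and 103 CPM. In ABCG1KO 1 and 2 it measured 12.6 and 6.91 CPM. All LysM-DKO libraries were high, all WT libraries low, and the ABCG1KO libraries lay between them without touching either group.

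The mean level of Hal was 2.81 ± 1.72 CPM in WT (n = 3), 137 ± 29.2 CPM in LysM-DKO (n = 3) and 9.76 ± 4.03 CPM in ABCG1KO (n = 2). The LysM-DKO mean was 48.6 times the WT mean, and the lowest LysM-DKO library was 24.0 times the highest WT library. In counts, WT held 109, 156 and 36 and LysM-DKO held 6495, 6128 and 4130. Hal was thus low in WT but not off: the fewest counts in any library, the 36 of WT 3, were 12 times the floor of 3 counts, the upper limit that a count of 0 allows.

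WT was also the group in which Hal varied most. Its coefficient of variation was 61.2% in WT, 41.3% in ABCG1KO and 21.4% in LysM-DKO. Ranked per exon length among the tested genes of known length, Hal stood at the 13.4th to 24.0th percentile of the WT libraries and at the 82.7th to 88.1st of the LysM-DKO libraries. In ABCG1KO it stood at the 29.6th and 39.6th percentile. A gene low in the ranking of the WT macrophage transcriptome thus stood at the 82.7th percentile or above in each LysM-DKO library.

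Qpct had the opposite order. It measured 158, 117 and 124 CPM in WT 1, 2 and 3. It measured 2.33, 4.24 and 5.67 CPM in LysM-DKO 1, 2 and 3. It measured 12.9 and 27.7 CPM in ABCG1KO 1 and 2. WT was high, LysM-DKO low, and ABCG1KO again lay between, with no overlap of any groups.

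Mean Qpct was 133 ± 22.5 CPM in WT (n = 3), 4.08 ± 1.68 CPM in LysM-DKO (n = 3) and 20.3 ± 10.4 CPM in ABCG1KO (n = 2). The LysM-DKO mean was 3.07% of the WT mean, and the lowest WT library was 20.6 times the highest LysM-DKO library. The LysM-DKO libraries still held 96, 174 and 227 counts, at least 32 times the floor of 3 counts, so Qpct was graded and not absent. Its length-scaled rank was at the 92.8th to 94.4th percentile in WT and at the 28.6th to 38.1st in LysM-DKO, against the 54.7th and 73.3rd in ABCG1KO.

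Cacna1a was separated by less. It stood at 9.67, 15.5 and 11.1 CPM in WT 1, 2 and 3. It stood at 51.9, 48.9 and 60.2 CPM in LysM-DKO 1, 2 and 3. It stood at 3.26 and 5.31 CPM in ABCG1KO 1 and 2. Here ABCG1KO was below WT and not between the other groups, and again no groups overlapped.

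Mean Cacna1a was 12.1 ± 3.02 CPM in WT (n = 3), 53.7 ± 5.87 CPM in LysM-DKO (n = 3) and 4.28 ± 1.45 CPM in ABCG1KO (n = 2). The LysM-DKO mean was 4.45 times the WT mean, and the lowest LysM-DKO library was 3.16 times the highest WT library. Its coefficient of variation in LysM-DKO, 10.9%, was below that of Hal and of Qpct in any group. The fewest counts in any WT library were 330, and ABCG1KO held 104 and 225, so no library was near the floor. Of the 3 genes Cacna1a stayed lowest in rank where it was high, at the 50.2nd to 55.9th percentile per length in LysM-DKO.

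**Figure D1:**
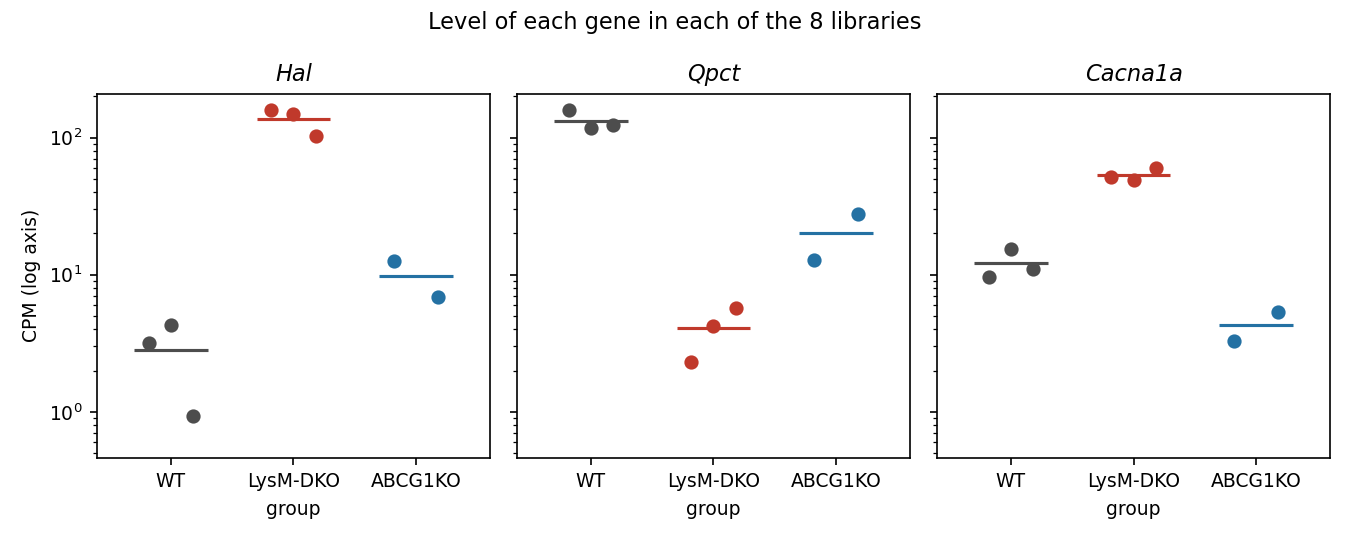
Level of Hal, Qpct and Cacna1a in each library, in CPM on a log axis, by group; points are libraries and lines are group means. No groups overlap in any panel, ABCG1KO lies between the others for Hal and Qpct, and it lies below WT for Cacna1a.

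None of the 3 genes switched on or off in the sense of having no more than 3 counts in each library of a group. All were graded, over more than 20-fold between the nearest libraries of WT and LysM-DKO for Hal and Qpct. When the tested genes were ordered by the gap between the nearest WT and LysM-DKO libraries, with 0.5 CPM added, Hal was 1st with a ratio of 21.6 and Qpct 2nd with 19.0. Next came Klk1b22 with a ratio of 7.75. Cacna1a was 11th with 3.09. This order restates how the genes were chosen and is no test.

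As background, WT and LysM-DKO libraries did not overlap for 2902 of the 13821 tested genes, 21.0%. At an adjusted p under 0.05 in edgeR's quasi-likelihood test, 5 genes (0.0362%) were called, with 1611 at an unadjusted p under 0.05, and 301 were called by DESeq2. The 3 genes were chosen on this same comparison, so their place among these 5 calls is no support for them.

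Hal and Qpct changed places as the more abundant transcript. Per kilobase of exon, Qpct was 108, 59.2 and 290 times the level of Hal in WT 1, 2 and 3. In LysM-DKO 1, 2 and 3, Hal was 31.0, 16.1 and 8.33 times the level of Qpct. In ABCG1KO 1 and 2, Qpct was still above Hal, by 2.23 and 8.75 times. ABCG1KO kept the WT order with a narrower distance in each library.

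Cacna1a was the scarcer transcript per length throughout LysM-DKO relative to Hal. It measured 4.28 to 5.27 CPM per kilobase there, and Hal measured 18.6 to 28.4. In WT it measured 0.847 to 1.35 CPM per kilobase, above the 0.168 to 0.776 of Hal. That order was reversed in both ABCG1KO libraries, with 2.27 and 1.25 CPM per kilobase for Hal and 0.286 and 0.465 for Cacna1a.

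The ABCG1KO libraries took no part in the choice of the genes, while the WT libraries did, so the comparison of ABCG1KO with WT is only partly independent of it. In ABCG1KO, Qpct was lower than in WT, with a log2 difference of -2.71 (SE 0.441, adjusted p = 0.00676 in edgeR), and both ABCG1KO libraries lay below all 3 WT libraries. Cacna1a was lower too, with a log2 difference of -1.49 (SE 0.278, edgeR adjusted p = 0.0112), again with both libraries below all WT libraries. Hal had an estimate of 1.80 (SE 0.536) and did not pass, with an edgeR adjusted p = 0.0595, although both libraries lay above all WT libraries. Thus 2 of the 3 genes were called, both lower. Of all tested genes, 16.0% were called in this comparison, 7.21% higher and 8.83% lower, and 48.2% did not overlap between the groups.

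The Qpct call held in all 16 alternative analyses, at adjusted p = 1.30e-09 to 0.0387, and its estimate was -2.27 without ABCG1KO 1 and -3.37 without ABCG1KO 2. The Cacna1a call was lost without ABCG1KO 1 (-1.19, adjusted p = 0.0611, over a range of 1.50e-05 to 0.0611). Hal passed with library size scaling alone (2.03, adjusted p = 0.0315) and in DESeq2 (1.80, adjusted p = 0.00387), over a range of 0.00387 to 0.272.

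On the log2 scale, ABCG1KO stood 34.2% of the way from WT to LysM-DKO for Hal, with 41.6% and 26.7% in its libraries. For Qpct it stood at 54.9%, with 65.7% and 44.1%. For Cacna1a it stood at -69.3%, on the far side of WT. On the linear scale, ABCG1KO held 15.3% of the WT level of Qpct and 35.5% of that of Cacna1a, and 3.47 times that of Hal. A position between the groups with no overlap on either side, as Hal and Qpct had, was found for 67 tested genes, 0.485%. That is 2.31% of the genes whose WT and LysM-DKO libraries did not overlap. Hal and Qpct were chosen for wide gaps, which leave more room for a position between the groups. These shares are therefore no test of how rare the position is for such genes.

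Between LysM-DKO and ABCG1KO, given as estimates because the LysM-DKO libraries entered the choice, the log2 fold change was 3.81 (SE 0.613) for Hal, -2.32 (SE 0.403) for Qpct and 3.64 (SE 0.307) for Cacna1a. Against WT, LysM-DKO had estimates of 5.61 (SE 0.568), -5.03 (SE 0.421) and 2.15 (SE 0.242). The sizes of Hal and Cacna1a were thus close to each other against ABCG1KO and far apart against WT. These comparisons share libraries and are not independent of each other.

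**Figure D2:**
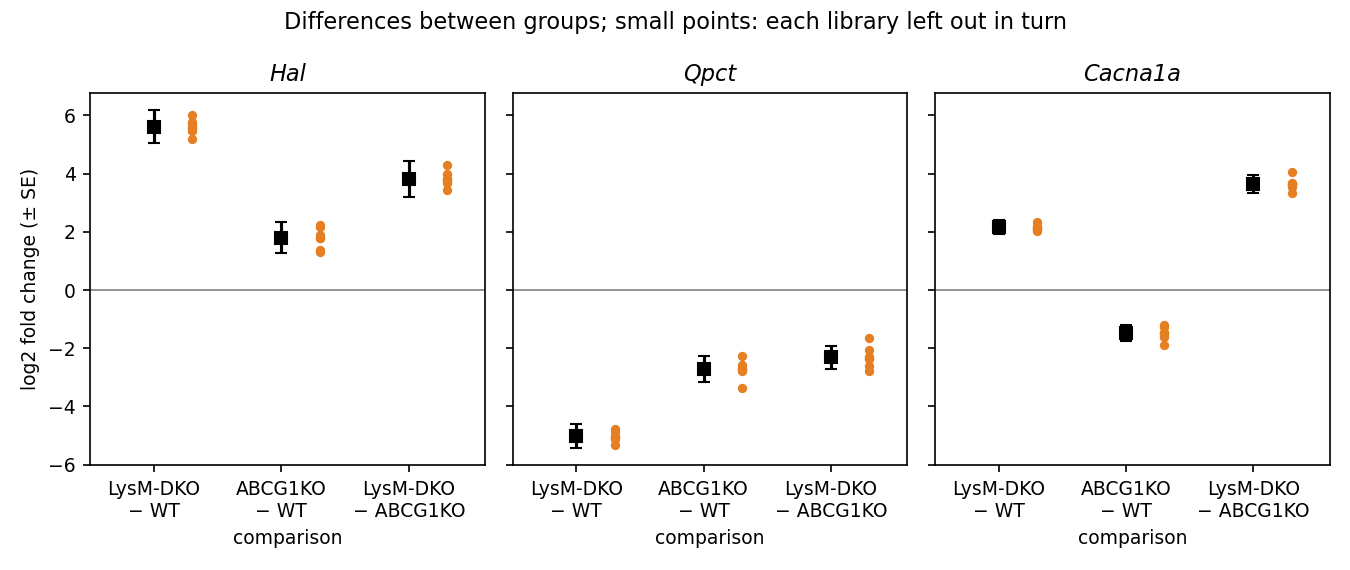
Differences between groups for Hal, Qpct and Cacna1a as log2 fold changes (squares, bars are SE), with the estimates when each of the 8 libraries is left out (small points). No left-out library turns a direction, and the LysM-DKO minus WT estimates range from 5.19 to 6.03 for Hal, -5.34 to -4.76 for Qpct and 2.02 to 2.35 for Cacna1a.

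Some facts of the libraries move with the groups. Counts in genes were 29567615 to 41888516 per library. The labels were checked on their targets: Abcg1 was 66.9 CPM in ABCG1KO against 384 in WT (log2 fold change -2.52, edgeR adjusted p = 0.00414). Epn1, an epsin gene, was 169 CPM in LysM-DKO against 208 in WT, and Epn2 was 8.40 against 7.34, neither called; whole-gene counts do not show whether single exons are lost, and LysM-DKO here means the libraries labelled so. Xist, expressed in females, was 79.1 to 265 CPM in WT and in LysM-DKO 2 and 3, with 0 to 2 counts in LysM-DKO 1 and ABCG1KO. The Y-linked Ddx3y was 81.6 CPM in LysM-DKO 1 and 92.6 and 94.8 CPM in ABCG1KO. ABCG1KO and WT therefore differ in these sex markers as well as in genotype, and sex and genotype cannot be told apart. The share of reads outside annotated genes was 13.8% and 10.2% in ABCG1KO 1 and 2 against 4.26% to 6.07% elsewhere, and that of reads aligned to several loci was 6.93% and 6.74% against 2.65% to 3.01%. Gapdh, a glycolytic gene used as a reference for expression, measured 4.99 and 2.05 CPM in ABCG1KO against 731 to 1705 CPM elsewhere. Whether the ABCG1KO libraries were processed like the others is not given in the sources used here, and its part in the ABCG1KO levels and calls was not tested.

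LysM-DKO held libraries with Xist and 1 without it. LysM-DKO 1 had the highest Hal and the lowest Qpct of its group, and without it the differences from WT were 5.47 (SE 0.616) for Hal, -4.76 (SE 0.409) for Qpct and 2.16 (SE 0.275) for Cacna1a. The part of sex in these values was not tested.

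Macrophage markers were present in every library: the summed level of 8 genes, Adgre1, Csf1r and Cd68 among them, was 18040 to 21160 CPM in WT, 10990 to 13060 in LysM-DKO and 18390 to 22240 in ABCG1KO. Lyz2, the gene whose promoter the LysM label names, made up most of these sums and was at 6849 CPM in LysM-DKO against 14620 CPM in WT. Adgre1, Csf1r and Cd68 were at 556, 1203 and 2339 CPM in LysM-DKO against 606, 1250 and 2377 CPM in WT. Of the 8 genes, 2 had a higher and 6 a lower estimate in LysM-DKO than in WT. Their median was -0.09, and 0 were called by edgeR, where 0.0362% of all tested genes were. Fibroblast and mesothelial markers were also abundant. Their sums were 704 to 892 CPM in WT, 644 to 1616 in LysM-DKO and 151 to 1164 in ABCG1KO. These ranges overlap for every pair of groups. All 6 genes had higher estimates in LysM-DKO than in WT (median 0.35) and than in ABCG1KO (median 0.53). Of them, 0 were called by edgeR in either comparison, where 0.0362% and 13.4% of all tested genes were. The part of these markers in the results was not tested.

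Markers of the cells in which Hal and Cacna1a are best known were set beside their values. Of 6 hepatocyte genes, the summed level was at most 0.0259 CPM in WT and LysM-DKO; in ABCG1KO it was 11.4 and 7.15 CPM, nearly all of it Ttr. Of 6 keratinocyte genes, the sums were 0.997 to 1.66 CPM in WT, 1.02 to 1.15 in LysM-DKO and 2.05 to 2.79 in ABCG1KO, and Dsg3 was at 0 in every library. Of 6 neuronal genes, the sums were 21.1 to 43.8 CPM in WT, 16.4 to 39.3 in LysM-DKO and 9.56 to 15.8 in ABCG1KO, mostly Syn1, while Snap25 was at 0 in every library. Each hepatocyte marker had at most 1 count in any LysM-DKO library. The part of keratinocytes and neurons in the results was not tested.

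For Qpct, lymphoid markers were the ones to set beside the values. The summed level of 6 B cell genes was 8.32, 30.8 and 2.85 CPM in WT 1, 2 and 3, 1.45, 1.95 and 3.85 in LysM-DKO 1, 2 and 3, and 15.3 and 3.11 in ABCG1KO 1 and 2. Of these genes, 5 had a lower and 1, Ebf1, a higher estimate in LysM-DKO than in WT, with a median of -4.01. Cd79a, a subunit of the B cell receptor, measured 2.87, 9.55 and 1.22 CPM in WT and 0, 0.341 and 0.275 CPM in LysM-DKO, a difference that was not called (-4.45, SE 1.43, edgeR adjusted p = 0.354). The sums of the 6 genes overlapped between WT and LysM-DKO, but those of the 5 genes without Ebf1 did not. These were 7.12, 30.3 and 2.51 CPM in WT 1, 2 and 3. They were 0.0242, 1.365 and 1.4 CPM in LysM-DKO 1, 2 and 3, and 15.1 and 2.64 CPM in ABCG1KO 1 and 2. Both ABCG1KO sums of the 6 genes lay inside the WT range, which was wide, from 2.85 to 30.8 CPM. The sums of the other lists were 0.466 to 4.03 CPM in WT and 0.575 to 2.54 in LysM-DKO for T cells, with 2.45 and 3.04 in ABCG1KO. For neutrophils they were 2.35 to 3.42, 0.824 to 2.92, and 2.41 to 6.02 CPM in the same order of groups. For mast cells they were 0.181 to 3.15, 0.121 to 0.536, and 7.95 to 47.2 CPM. The part of these cells in the Qpct result was not tested.

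The genes beside Hal, Qpct and Cacna1a were described next, taking the 3 nearest protein-coding genes on each side. Of these 18 neighbours, 0 were called between LysM-DKO and WT by edgeR, where 5 of all 13821 tested genes (0.0362%) were. Amdhd1 and Mri1, 2 of the 18, had an unadjusted p under 0.05, as had 1611 of all tested genes. DESeq2 called 1 neighbour (Amdhd1) and 301 genes in all. Estimates of 16 neighbours lay within 1 log2 unit of 0. The nearest neighbour of Hal on its lower side, Lta4h, which makes leukotriene B4 and ends 3893 bases before Hal, measured 114 ± 11.6 CPM in WT, 99.4 ± 14.2 in LysM-DKO and 80.2 ± 3.13 for ABCG1KO. Against WT in ABCG1KO, where 16.0% of all tested genes were called, 2 of the 18 neighbours were called, a share near that background. They were the transcription factor gene Elk3 near Hal (1.20, SE 0.195, edgeR adjusted p = 0.00632) and Nacc1 near Cacna1a (-0.53, SE 0.137, edgeR adjusted p = 0.0349). The Nacc1 call was lost in 9 of 16 alternatives. Among them were library size scaling alone, the replicate number as a block, and leaving out any WT library, LysM-DKO 1, LysM-DKO 2 or ABCG1KO 1.

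Amdhd1, on the other side of Hal, lies 4034 bases beyond its end, on the opposite strand. It encodes imidazolonepropionase, a later enzyme of the same histidine pathway. Its counts were 2, 0 and 11 in WT 1, 2 and 3. Its counts were 134, 61 and 85 in LysM-DKO 1, 2 and 3, or 3.25, 1.49 and 2.12 CPM. Its counts were 4 and 2 in ABCG1KO 1 and 2. LysM-DKO was high and did not overlap with either group, and ABCG1KO did not follow Hal upwards.

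The estimate for Amdhd1 between LysM-DKO and WT was 4.26 (SE 1.06) and was not called by edgeR (adjusted p = 0.289), while DESeq2 called it (adjusted p = 0.00288). Over 15 alternative analyses its adjusted p ranged from 0.00288 to 0.636. Against ABCG1KO it was called as higher (edgeR adjusted p = 0.0493). That call was lost in 8 of 15 alternatives. Among them were library size scaling alone, the replicate number as a block, and leaving out WT 1 or any LysM-DKO or ABCG1KO library.

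**Figure D3:**
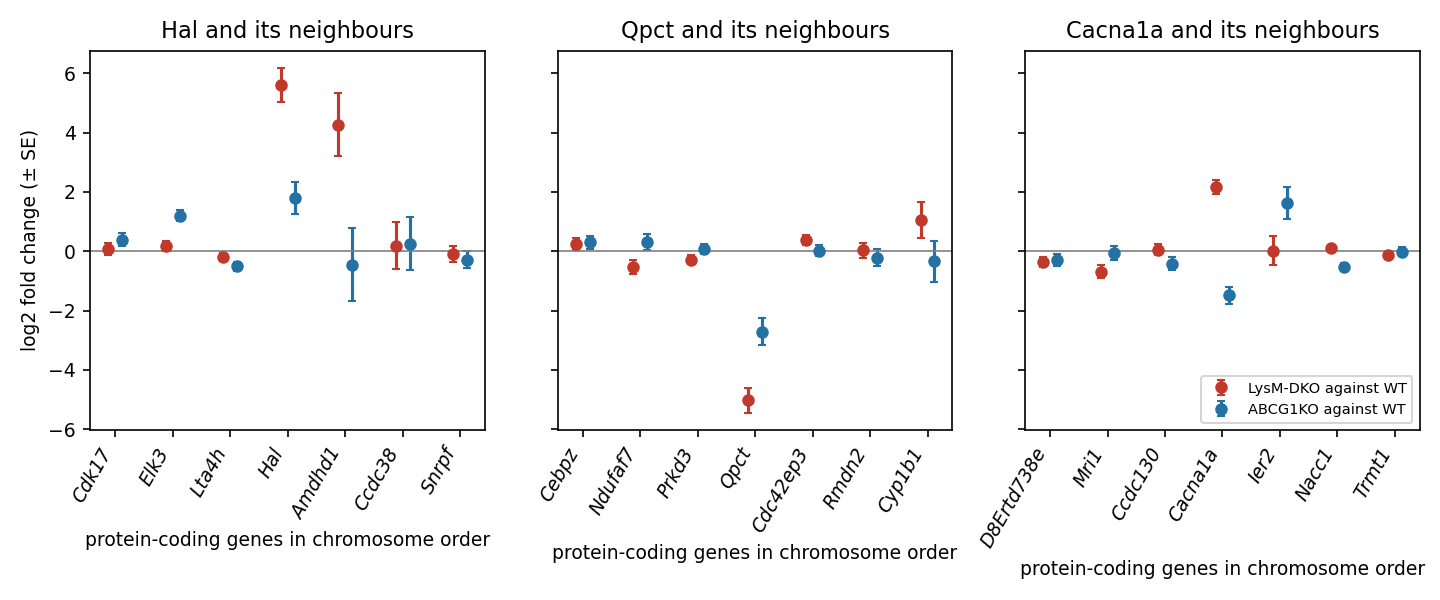
Log2 fold changes (points, bars are SE) against WT for Hal, Qpct and Cacna1a and the 3 nearest protein-coding genes on each side, in chromosome order. Beside Hal, only Amdhd1 has a LysM-DKO estimate above 1, and all neighbours of Cacna1a have LysM-DKO estimates within 1 unit of 0.

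The histidine list held 18 genes of histidine breakdown, histamine, histidine dipeptides, transport and folate transfer. Of these 12 were tested, and 4 had at most 3 counts in every library. Uroc1, urocanate hydratase, acts on the product of Hal, and Ftcd ends the route by passing its one-carbon group to folate. Both had at most 1 count in any library, so neither was detectable at this depth. Besides Hal, 0 of 11 tested genes were called between LysM-DKO and WT by edgeR, where 0.0362% of all tested genes were. Amdhd1 and Hdc, 2 of the 11, had an unadjusted p under 0.05, and 1, Amdhd1, was called by DESeq2. Over all 13821 tested genes these counts were 1611 and 301. The median log2 fold change of the 11 was -0.07 against 0.02 over all genes tested.

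In ABCG1KO, 3 of the 11 genes fell relative to WT and none rose, where 8.83% of all tested genes were called lower and 7.21% higher, with a median of -0.45 against 0.01 over all genes. Slc15a3, a lysosomal transporter of histidine and peptides, measured 839, 958 and 862 CPM in WT and 284 and 407 CPM in ABCG1KO (-1.36, SE 0.198, edgeR adjusted p = 0.00392). It measured 840, 745 and 851 CPM in LysM-DKO, overlapping with WT. Hnmt, which methylates histamine, fell by 1.39 on the log2 scale (SE 0.320, edgeR adjusted p = 0.0240). Mthfs, a folate enzyme, fell by 1.05 (SE 0.224, edgeR adjusted p = 0.0187). The Slc15a3 call held in all 16 alternatives, whereas Hnmt and Mthfs were each lost in 4. Both were lost with the replicate number as a block and without WT 3 or ABCG1KO 1. Hnmt was also lost without WT 1, and Mthfs without ABCG1KO 2.

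Between LysM-DKO and ABCG1KO, 3 of the 11 genes were higher (Amdhd1, Slc15a3 and Mthfs) and 1 was lower, where 13.4% of all genes were called, 7.76% higher and 5.64% lower. The lower one was Hdc, the enzyme that turns histidine into histamine. It measured 1.17 and 2.21 CPM in WT 1 and 2, 0.195 CPM in LysM-DKO 2 and 5.61 and 1.13 CPM in ABCG1KO. WT 3, LysM-DKO 1 and LysM-DKO 3 held 2, 3 and 2 counts of Hdc, no more than the floor of 3 counts. Hdc is also a gene of mast cells, whose markers were highest in the ABCG1KO libraries (47.2 and 7.95 CPM), and their part in it was not tested. Leaving out ABCG1KO 1 ended the calls of Slc15a3, Mthfs and Hdc. The calls of Mthfs and Hdc were also lost with the replicate number as a block. Mthfs was lost without LysM-DKO 1 as well, and Hdc without WT 1, WT 2 or any LysM-DKO library. The dipeptidase gene Cndp2 measured 692 ± 46.6 CPM in WT, 574 ± 111 in LysM-DKO and 490 ± 9.10 for ABCG1KO and was called by edgeR in none of the comparisons.

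The enzymes that make or remove pyroglutamate formed a list of 10 genes, of which 8 were tested. Besides Qpct, 0 of 7 were called between LysM-DKO and WT by edgeR and by DESeq2, and 1, Chac1, had an unadjusted p under 0.05. Over all 13821 tested genes, edgeR called 0.0362% there, DESeq2 called 301, and 1611 had an unadjusted p under 0.05. Between ABCG1KO and WT, 0 of the 7 were called by edgeR, and 2, Qpctl and Ggct, had an unadjusted p under 0.05 and were called by DESeq2. In that comparison edgeR called 16.0% of all tested genes, DESeq2 called 3239, and 4355 had an unadjusted p under 0.05. The medians of the 7 were -0.12 in LysM-DKO and -0.11 in ABCG1KO, both against WT. Qpctl, the Golgi-resident relative of Qpct with the same activity, measured 17.5, 22.4 and 17.3 CPM in WT, 15.8, 19.4 and 15.2 in LysM-DKO and 10.8 and 13.1 in ABCG1KO. WT and LysM-DKO overlapped for Qpctl (-0.18, SE 0.180, edgeR adjusted p = 0.694), and ABCG1KO was below both (-0.68 against WT, SE 0.206, edgeR adjusted p = 0.0592).

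Per kilobase of exon, the order of both cyclase transcripts differed between groups. Qpct was 15.3, 8.83 and 12.1 times the level of Qpctl in WT 1, 2 and 3, and 2.03 and 3.59 times in ABCG1KO 1 and 2. In LysM-DKO 1, 2 and 3 it was 0.250, 0.371 and 0.635 times the level of Qpctl. Qpctl was thus the more abundant cyclase transcript per length in each LysM-DKO library, and in no other. Pgpep1, which removes pyroglutamate from peptides, measured 43.5 ± 7.51 CPM in WT and 41.4 ± 12.6 CPM in LysM-DKO. Ggct, which releases free pyroglutamate in glutathione turnover, was called as lower in LysM-DKO than in ABCG1KO (-1.46, edgeR adjusted p = 0.0312), the only call of the 7 in that comparison (13.4% of all tested genes were called), and the call was lost in 7 of 16 alternatives, among them those without WT 2, LysM-DKO 1, LysM-DKO 2 or either ABCG1KO library (up to 0.115).

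Of 8 known or proposed substrates of the cyclase, 3 (Trh, Nts and Gast) had no count and 5 were tested. Against WT, 0 were called by edgeR or DESeq2 in either knockout, and 0 had an unadjusted p under 0.05. Their medians were -0.22 in LysM-DKO and 0.12 in ABCG1KO. Of all 13821 tested genes, edgeR called 0.0362% in LysM-DKO and 16.0% in ABCG1KO. DESeq2 called 301 and 3239, and 1611 and 4355 had an unadjusted p under 0.05. Ccl2, a monocyte chemokine, measured 36.0, 26.6 and 4.58 CPM in WT, 17.7, 16.2 and 19.2 in LysM-DKO and 18.5 and 18.3 in ABCG1KO. The Ccl2 levels of both knockouts lay inside the WT range, and WT 3, the lowest library, was also the lowest for Hal. Cd47, the don't-eat-me ligand of SIRPα, measured 112 ± 8.97 CPM in WT, 96.1 ± 9.66 in LysM-DKO and 122 ± 9.40 for ABCG1KO. Gnrh1, at 1, 13 and 12 counts in WT, 2 in each LysM-DKO library and 49 and 14 in ABCG1KO, was the only one of the 5 called as lower in LysM-DKO than in ABCG1KO, where 5.64% of all tested genes were, and that call was lost in 8 of 15 alternatives, among them those without WT 2, WT 3, any LysM-DKO library or ABCG1KO 1 (up to 0.283).

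The calcium channel list held 26 subunit genes, of which 14 were tested, 5 had no count and 8 had at most 3 counts in every library. Besides Cacna1a, 0 of 13 were called between LysM-DKO and WT by edgeR, 7 with a higher and 6 with a lower estimate and a median of 0.03. Cacna1g and Cacnb4 had an unadjusted p under 0.05, and DESeq2 called 1, Cacna1g. Over all 13821 tested genes, edgeR called 0.0362% there, DESeq2 called 301, and 1611 had an unadjusted p under 0.05. The auxiliary subunits were low: Cacnb3 measured 5.65 ± 2.09 CPM in WT and 6.45 ± 3.03 in LysM-DKO, and Cacna2d1 measured 2.04 ± 0.426 and 5.11 ± 2.92 CPM.

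Against WT in ABCG1KO, 2 of the 13 were called as higher and 1 as lower, where 7.21% and 8.83% of all tested genes were. Cacna1d encodes the pore subunit of an L-type channel. It measured 7.30, 17.4 and 15.5 CPM in WT, 12.4, 12.8 and 11.7 in LysM-DKO and 33.1 and 36.4 in ABCG1KO. Cacna1d was high in ABCG1KO, where Cacna1a was low, and it overlapped between WT and LysM-DKO, where Cacna1a did not. Against WT in ABCG1KO it rose by 1.37 (SE 0.316, edgeR adjusted p = 0.0236). That call was lost without either ABCG1KO library and with only the compared groups in the fit. Cacnb1, a beta subunit, rose as well (1.34, SE 0.371, edgeR adjusted p = 0.0437), but was lost in 10 of 16 alternatives, including those without any WT or LysM-DKO library or without ABCG1KO 1 (up to 0.240).

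The T-type pore subunits were near the floor. Cacna1g had 1, 1 and 0 counts in WT, 10, 91 and 15 in LysM-DKO and 0 and 0 in ABCG1KO. Cacna1h had 19, 16 and 7 counts in WT, 9, 16 and 15 in LysM-DKO and 0 and 1 in ABCG1KO, and was called as lower in ABCG1KO than in WT (edgeR adjusted p = 0.0349, lost in 7 of 15 alternatives, among them those without WT 1, WT 2, LysM-DKO 2 or either ABCG1KO library, up to 0.148). Both were called as higher in LysM-DKO than in ABCG1KO, where Cacna1d was called as lower; of all tested genes, 7.76% were called higher and 5.64% lower there. All 3 of these calls were lost without either ABCG1KO library. That of Cacna1d was also lost without LysM-DKO 1 or LysM-DKO 3. The Cacna1g call was lost in 7 of 13 alternatives, among them those without any WT library. The Cacna1h call was lost in 11 of 15, among them each of those with a library left out. Cacna1g resembled Cacna1a in being highest in LysM-DKO, at 0.242, 2.22 and 0.375 CPM, with most of it in LysM-DKO 2. When genes at the floor took the value of their bound, the list median was 0.03 in LysM-DKO and -0.03 in ABCG1KO, against -0.08 without bounds in ABCG1KO.

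**Figure D4:**
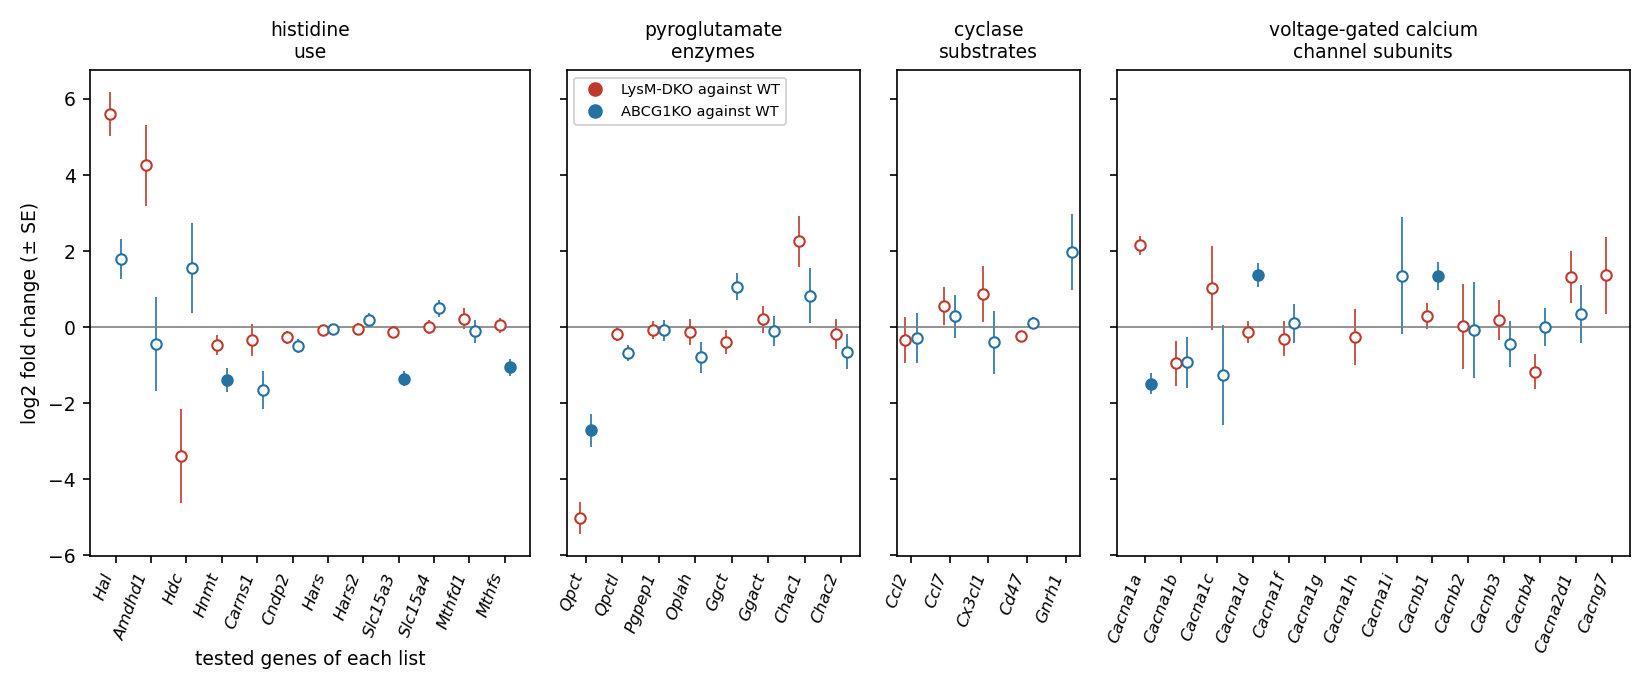
Log2 fold changes against WT (bars are SE) for the tested genes of the histidine, pyroglutamate, cyclase substrate and calcium channel lists; filled points were called by edgeR, Hal, Qpct and Cacna1a are left open for LysM-DKO because they were chosen on it, and genes with at most 3 counts in every library of a compared group have no point. Most list members lie near 0 beside the 3 chosen genes. No other LysM-DKO point is filled, where edgeR called 0.0362% of all tested genes.

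The tested genes with the most similar profiles were found by the root mean square distance between log2 levels over the 8 libraries, each profile centred on its own mean. Hal itself varied by 2.62 log2 units around its mean on this measure. Nearest to Hal were Klk1b22 (distance 1.02), Tdrd9 (1.17) and Fgf10 (1.35). Klk1b22, a kallikrein of a family with near-identical members, so that its counts are uncertain, had 0 counts in each WT library, 153, 373 and 135 in LysM-DKO and 24 and 30 in ABCG1KO. Like Hal it was lowest in WT, highest in LysM-DKO and between them in ABCG1KO, but it was on or off between WT and LysM-DKO where Hal was graded.

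Tdrd9, a helicase gene of the germline piRNA pathway, had 87, 29 and 123 counts in LysM-DKO and 0 in all WT and ABCG1KO libraries, so it did not share the intermediate ABCG1KO level. Fgf10, a growth factor gene, had 111, 66 and 34 counts in LysM-DKO and at most 4 elsewhere. Over the 6 WT and LysM-DKO libraries alone, Serpina3h, a serine protease inhibitor gene, was nearest to Hal (0.719), followed by Klk1b22 and Tdrd9. No gene came as near to Hal as the nearest 3 genes came to Cacna1a. Cacna1a itself varied by only 1.48 log2 units, and the distances are not scaled to a gene's own variation.

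Nearest to Qpct, which varied by 2.25 log2 units, were Ly6d (1.05), Armc2 (1.10) and AI506816 (1.12). Armc2 measured 23.6, 12.5 and 21.6 CPM in WT, 2.81, 2.46 and 3.30 in LysM-DKO and 5.42 and 10.5 in ABCG1KO. It had the same order of groups as Qpct, with no overlap between any of them and a smaller distance. Ly6d, a gene of the B cell lineage, measured 2.08, 4.11 and 0.828 CPM in WT and at most 0.0488 in LysM-DKO, and over the 6 WT and LysM-DKO libraries the nearest genes were Jchain (0.652), Ly6d and Mzb1, all of that lineage. Jchain measured 3.37, 3.37 and 3.73 CPM in WT and 0.0485, 0.341 and 0.175 CPM in LysM-DKO, but 6.12 and 0.401 CPM in ABCG1KO, where it did not follow Qpct.

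Cacna1a, which varied by 1.48 log2 units, had the closest companions. Nearest was Cers4 (0.370), a ceramide synthase gene, then Pcdhgb1 (0.486), a protocadherin gene of a cluster with shared exons, and Cemip (0.492), which takes part in hyaluronan breakdown. Cers4 measured 6.48, 10.7 and 10.8 CPM in WT, 30.6, 29.5 and 24.6 in LysM-DKO and 2.48 and 4.84 in ABCG1KO. Cemip measured 17.0, 19.5 and 9.37 CPM in WT, 61.6, 67.3 and 52.3 in LysM-DKO and 1.88 and 8.23 in ABCG1KO. Both had the order of Cacna1a, highest in LysM-DKO and lowest in ABCG1KO, with no overlap between groups.

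Without the ABCG1KO libraries the companions of Cacna1a were others: Serpine2 (0.268), Chac1 (0.286) and Dio3 (0.350). Serpine2 measured 0.557, 1.02 and 1.14 CPM in WT, 4.02, 3.51 and 3.65 in LysM-DKO and 5.14 and 4.79 in ABCG1KO, so it parted from Cacna1a in ABCG1KO. Chac1, a glutathione-degrading enzyme that is also in the pyroglutamate list, measured 0.205, 0.497 and 0.233 CPM in WT, 1.02, 1.34 and 2.17 in LysM-DKO and 0.282 and 0.825 in ABCG1KO. These similarities are descriptions over few libraries in which the same groups set most of the variation.

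**Figure D5:**
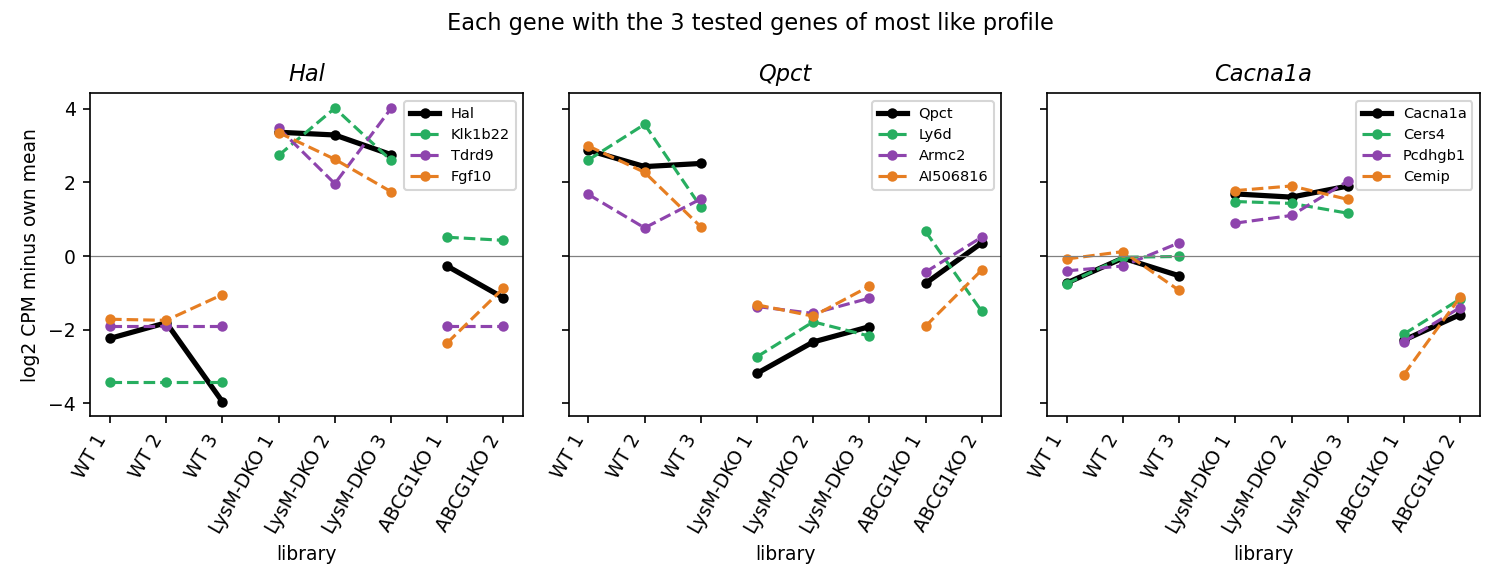
Log2 CPM in each library minus the gene's own mean over the 8 libraries, for Hal, Qpct and Cacna1a (solid black) and the 3 tested genes of nearest profile (dashed), with points joined within a group only to guide the eye. Companions of Cacna1a run closest to it, at distances of 0.370 to 0.492 that are not scaled to its smaller variation. Tdrd9 departs from Hal in ABCG1KO.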

How the data were processed

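The authors deposited raw counts per gene symbol, 1 file per library, in the output form of htseq-count. Per the submitters' processing notes, the tools named were STAR 2.7.9a, TopHat, HTSeq 0.11.2, DESeq2 1.30.1 and limma with build mm10, without their roles; strand setting and annotation are not given in the sources used here. Lines for reads given to no gene were kept out (4.26% to 13.8% of reads outside genes per library).

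Counts were analysed with edgeR 4.0.16 in R 4.3.3: filterByExpr by group (13821 genes), TMM, 1 quasi-likelihood fit over all 8 libraries with robust moderation, 5 residual degrees of freedom, and Benjamini-Hochberg adjustment over all genes tested, with calls at an adjusted p under 0.05. The fit was run on simulated data with known changes and checked only for the direction and median size of the fold changes. The number of calls was not part of that check. DESeq2 1.42.0, other scalings, count filters, a replicate block and leaving out each library were alternatives. A count of 0 allows up to 3 counts, 0.0716 to 0.101 CPM before scaling, for counting error only. Replicates differed beyond sampling noise (chi-square per degree of freedom 88.1 to 159). Symbols were matched to GENCODE M21, 98.2% with a length. Motif and 50-base searches used RefSeq promoters and GENCODE transcripts.

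The members, lists and tests were chosen with earlier results of these data known. Named are the 3 genes, the 3 nearest profiles and 3 neighbours per side of each, the list genes called in a comparison with up to 5 others of highest CPM, and Epn1, Epn2, Abcg1, Xist and Ddx3y. Uroc1, Ftcd, Trh, Nts, Gast, Chac1, Gapdh, the marker genes (Ebf1 and Cd79a among them) and the nearest profiles over 6 libraries were named after their values were seen.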

Additional observations from a re-analysis of the deposited data

How the results depend on the processing

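Over 16 alternatives, the estimates of Hal, Qpct and Cacna1a kept their direction in all 3 comparisons. Robust moderation was settled, and its absence added as an alternative, after the data were seen. Of 405 alternative values, 326 stayed near the main one, 0 reversed, and the count of list genes called moved in 50 of 192 cases. The number of genes called between LysM-DKO and WT, 5, was 3 when genes needed 10 or more counts in each library, 301 in DESeq2, 8 with only the compared groups, 3 without robust moderation, and 0 to 8 when a library was left out (0 without WT 2, LysM-DKO 2 or LysM-DKO 3). Between ABCG1KO and WT, 2216 genes were called, 996 higher and 1220 lower; library size scaling alone gave 2074 higher and 856 lower, and leaving out a library gave 853 (without ABCG1KO 1) to 2090. Between LysM-DKO and ABCG1KO, 1853 genes were called, 2982 in DESeq2, 948 with only the compared groups and 561 (without ABCG1KO 1) to 1960 when a library was left out. The cause was not tested. For Hal in ABCG1KO against WT, library size scaling alone gave 2.03 and DESeq2 1.80, both called, and leaving out a library gave 1.29 to 2.24. For Cacna1a, leaving out a library gave -1.89 to -1.19 in ABCG1KO against WT and 3.33 to 4.04 in LysM-DKO against ABCG1KO. Same-numbered libraries did not deviate together throughout (correlations of 0.0413, 0.426 and -0.0145 between WT and LysM-DKO). The value for WT 2 and LysM-DKO 2 was the highest of any pair of WT and LysM-DKO libraries. These few values do not settle whether the numbers pair the libraries, and the main fit has no replicate block. With the replicate number as a block, calls were 0 between LysM-DKO and WT (1520 at an unadjusted p under 0.05), 1456 between ABCG1KO and WT and 1024 between LysM-DKO and ABCG1KO, and no call of the 3 genes changed in ABCG1KO against WT (edgeR adjusted p = 0.0671 for Hal, 0.0209 for Qpct and 0.0219 for Cacna1a).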
